A study of Danio rerio with 20 samples.

Results

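The skin of zebrafish (Danio rerio) was compared after swimming and at rest at 2 ages, to ask whether the exercise response of old fish differs from that of young fish. The quantity of interest was the exercise effect at 3 years minus the exercise effect at 1 year, for each gene. Every one of the 20 libraries of the series entered this comparison. They form 4 groups of 5, all skin of male fish of the strain AB JxTu: 3-year fish after the swim-tunnel, 3-year fish without perturbation, 1-year fish after the swim-tunnel and 1-year fish without perturbation. A swim tunnel holds fish in flowing water, so that they must swim to keep their place. The length and speed of swimming, the time from swimming to sampling and the hour of sampling do not appear in the labels. The fish of the 2 ages are different animals, and no label ties one sample to another. Each p-value sets an effect against the spread between samples within groups, estimated over the 4 groups together.

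Fish skin is a living epidermis over a dermis that carries bony scales. Basal keratinocytes, held to the basement membrane by integrins and laminin, divide and replace the cells above them. In such a design a gene can respond at both ages, at 1 age, or in opposite directions. Whether the responses differ is answered by the test of the difference itself and not by counting genes that pass at one age and miss at the other. Where a capitalised symbol is printed, its role is that of the mammalian gene of the same name.

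Library totals lay between 29280697 and 52437698 counts. Of 7 skin markers, 6 were matched by symbol and none of these was at 0 in any library; they summed to 36910 to 54830 CPM in exercised 3-year, 40480 to 51490 CPM in unexercised 3-year, 51840 to 72230 CPM in exercised 1-year and 46510 to 57820 CPM in unexercised 1-year libraries. CPM is the count of a gene relative to the TMM-scaled library size. For replicate 1 of the 1-year fish without exercise, the column name holds the word muscle and the label says skin. In bulk skin, fewer cells of a type and less RNA per cell cannot be told apart.

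Exercise moved many more genes past the test at 1 year than at 3 years, yet a difference between the 2 responses passed for a single gene. Of 20788 genes tested, 275 (1.32%) were called at 3 years, 167 higher (0.803%) and 108 lower (0.52%) in exercised than in unexercised fish. At 1 year 3227 (15.5%) were called, 1532 higher (7.37%) and 1695 lower (8.15%), a split of 800 higher and 3666 lower when no scaling factors were used. Calls are at a Benjamini-Hochberg adjusted p below 0.05, taken over all genes tested, in edgeR's quasi-likelihood test. The shares above are the background for the calls counted in each gene list below. For the difference between ages, 1 gene (0.00481%) was called, higher at 3 years, and 0 were called lower. Without adjustment, 2783 genes (13.4%) had p below 0.05 for the difference, 1415 positive (6.81%) and 1368 negative (6.58%).

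The number of calls depended on the tool and on single libraries. DESeq2 called 500 genes for the difference (2.41%), 190 positive and 310 negative, and limma voom called 2 (0.00962%), both positive. For exercise itself DESeq2 called 6.05% of genes at 3 years and 19.8% at 1 year, and limma voom called 0.159% at 3 years and 19.7% at 1 year. Without replicate 5 of the exercised 3-year fish edgeR called 39, 27 positive and 12 negative, and without replicate 5 of the exercised 1-year fish it called 28, 7 positive and 21 negative. It called 8 without replicate 1 of the exercised 1-year fish, and 5 or fewer without any other single library. Without unexercised 1-year replicate 1, the library whose column is named muscle, it called 0. The same count of 0 was found without unexercised 1-year replicates 2 or 4. It was also found without unexercised 3-year replicates 1, 2 or 5, or exercised 3-year replicate 4. The 3-year count fell below its value by over 1.5 times without any one of the 5 unexercised 3-year libraries (42 to 110 called), without exercised 3-year replicate 5 (90) or without unexercised 1-year replicate 2 (152). The 1-year count did so without unexercised 1-year replicate 1 (2109) and without exercised 1-year replicates 2 (1909) or 4 (2016).

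**Figure D1:**
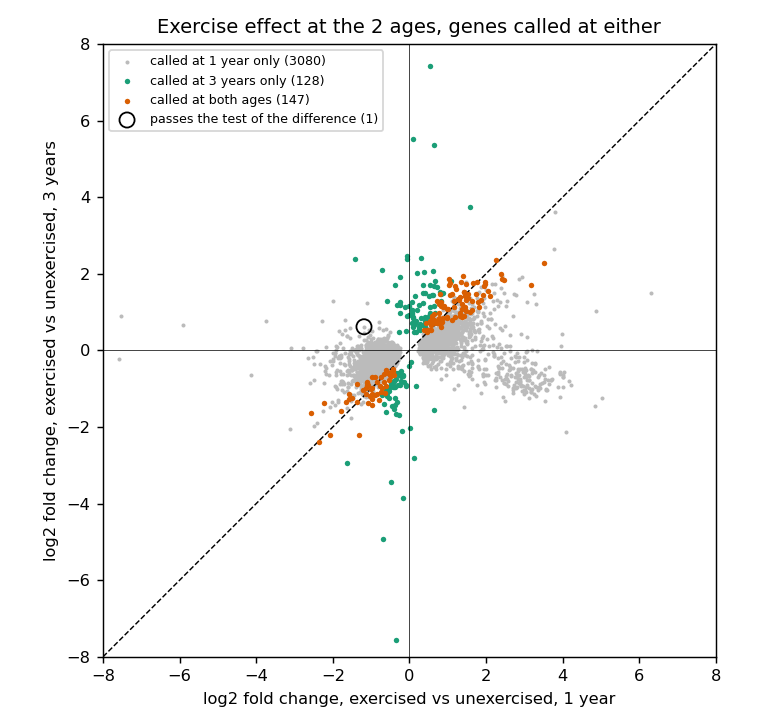
Log2 fold change of exercised against unexercised fish at 3 years (vertical axis) and at 1 year (horizontal axis), 1 point per gene called at either age. The dashed line marks equal effects, and the circle marks ENSDARG00000104886, the gene that passes the test of the difference. Genes called at both ages, chosen on both values, lie near the line. Of the 3080 called at 1 year alone, 3021 (98.1%) have a smaller effect in absolute size at 3 years. This describes genes chosen on their 1-year values.

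No gene was called at both ages in opposite directions. Of the genes called at both ages, 92 were higher and 55 lower with exercise at each. Over the 1532 genes called higher at 1 year, the median log2 fold change was 0.24 at 3 years and 0.86 at 1 year, and 1152 of them (75.2%) were also above 0 at 3 years. Over the 1695 called lower at 1 year the medians were -0.26 at 3 years and -0.75 at 1 year, with 1468 (86.6%) below 0 at both ages. Genes picked for their calls at 1 year carry the 1-year values that picked them, so the smaller 3-year medians are a description and not a test. Read the other way, the 167 genes called higher at 3 years had medians of 1.16 at 3 years and 0.66 at 1 year, and the 108 called lower had medians of -0.97 at 3 years and -0.54 at 1 year.

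The precision of the difference was limited. The median standard error (SE) of the difference was 0.32 on the log2 scale, against 0.23 for the effect at 3 years and 0.23 at 1 year. The 95% interval of the difference lay within 2-fold either way for 10185 of all genes tested (49%) and for 1469 of the 3227 genes called at 1 year (45.5%). For those 1469 genes a difference of 2-fold or more lies outside the interval. For the other 1758 the interval reached past 2-fold, and for 165 of these it lay wholly beyond. Over all 20788 genes tested it lay wholly beyond for 201. Genes called at 1 year were picked on an effect that is part of the difference, and the intervals are not adjusted for the number of genes. The 165 are therefore a description and not calls. Of the 147 genes called at both ages, 87 (59.2%) had an interval within 2-fold and 0 had one wholly beyond it. These 147 were picked for passing at both ages, all in the same direction, which favours a small difference. Their counts too are a description and not a test.

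The gene that passed was ENSDARG00000104886, which has no symbol in the name table and is weakly expressed. The ENSDARG00000104886 level at 3 years was 1.87, 2.36, 3.12, 3.25 and 2.61 CPM in exercised fish and 1.71, 1.64, 1.8, 1.59 and 1.88 CPM in unexercised fish. At 1 year it was 1.73, 1.96, 1.71, 1.09 and 1.71 CPM in exercised fish and 4.06, 4.66, 3.06, 4.02 and 2.89 CPM in unexercised fish. At 3 years 4 of 5 exercised libraries lay above the unexercised ones and replicate 1 overlapped them, and at 1 year all exercised libraries lay below all unexercised ones. Over all genes tested, the 5 and 5 values did not overlap for 4.32% at 3 years and 12.8% at 1 year. The log2 fold change was 0.62 (SE 0.19, adjusted p = 0.0919) at 3 years, which was not called, and -1.19 (SE 0.19, adjusted p = 0.00102) at 1 year. The difference was 1.80 (SE 0.27, 95% interval 1.24 to 2.36, adjusted p = 0.0383). It was called in DESeq2 and limma voom as well, but not without unexercised 1-year replicates 1, 2 or 4, unexercised 3-year replicates 1, 2, 3 or 5, or exercised 3-year replicates 3 or 4, where the adjusted p ranged up to 0.127.

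The next lowest p belonged to FNDC3B (ENSDARG00000062023), which encodes a protein with fibronectin type III domains. Levels of FNDC3B were 33, 34.2, 43.8, 37.4 and 30.8 CPM in exercised and 28, 31.9, 32.4, 29.3 and 31 CPM in unexercised 3-year fish. They were 25.1, 18.4, 26.1, 15.8 and 19.8 CPM in exercised and 41.4, 36.9, 38.5, 38.8 and 35.4 CPM in unexercised 1-year fish. Levels of exercised 1-year fish stood below those of every other group, and the groups at 3 years overlapped. Its difference of 1.09 (SE 0.18, 95% interval 0.72 to 1.46, adjusted p = 0.0617) was not called by edgeR, and was called by DESeq2 and in 7 of the 20 edgeR fits that left out a single library. The third lowest adjusted p was 0.101, a value shared by many genes, so the ranks that follow separate little.

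**Figure D2:**
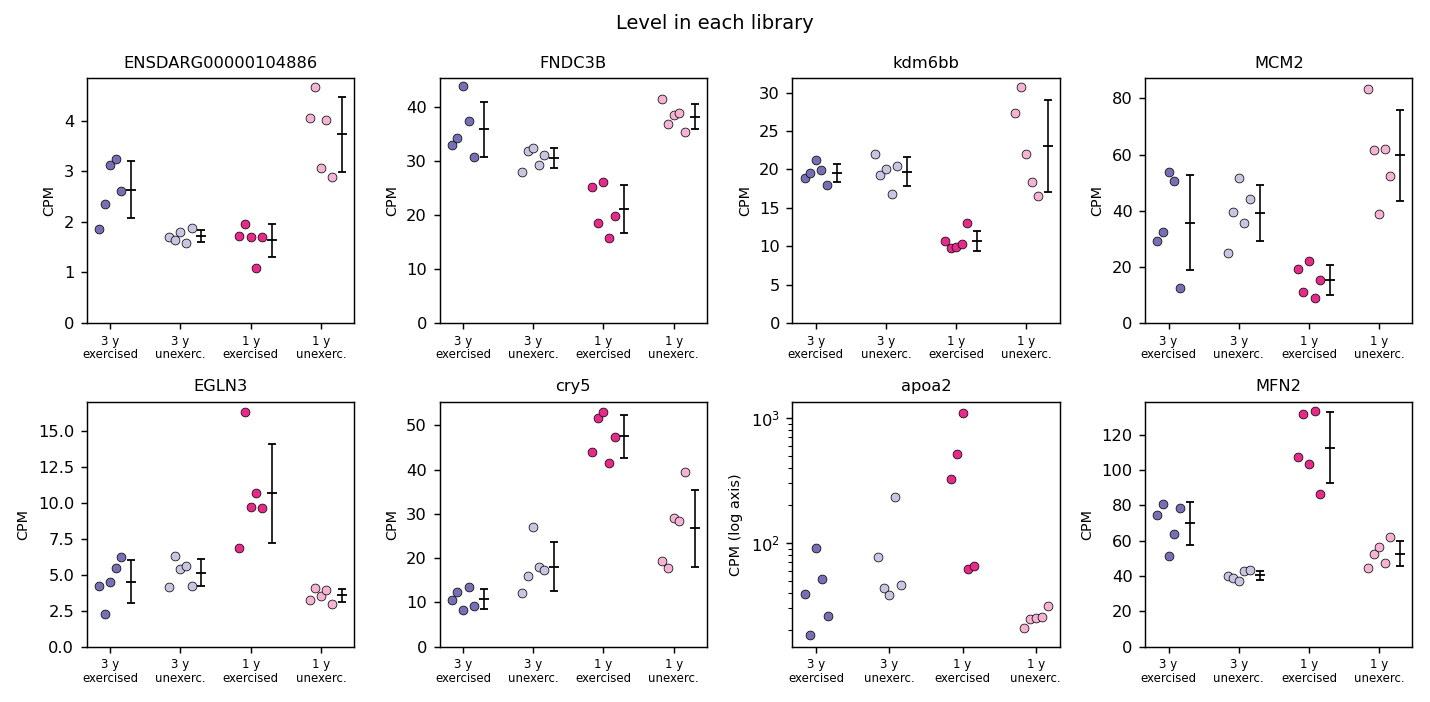
CPM of 8 genes in each of 20 libraries, in the order exercised 3-year, unexercised 3-year, exercised 1-year and unexercised 1-year fish, with the mean ± SD of 5 libraries beside the points; apoa2 is on a log axis without mean and SD. For FNDC3B, kdm6bb and MCM2 the exercised 1-year libraries lie below the unexercised 1-year ones while the 3-year groups overlap, and MFN2 is higher in exercised libraries at both ages.

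The 15 named genes of lowest p with a positive difference are given as not called. Of them, 3 rose at 3 years and 12 fell at 1 year. One that fell at 1 year was kdm6bb, a demethylase of histone H3 lysine 27. Exercised 3-year fish had 18.9, 19.5, 21.2, 20 and 18 CPM of kdm6bb, against 22, 19.2, 20, 16.8 and 20.4 CPM in unexercised 3-year fish. Exercised 1-year fish had 10.6, 9.75, 9.91, 10.3 and 13 CPM, against 27.4, 30.8, 22, 18.3 and 16.6 CPM in unexercised 1-year fish. The 3-year groups overlapped, while at 1 year all exercised libraries lay below the unexercised ones. The effect was -0.01 (SE 0.14, adjusted p = 0.97) at 3 years and -1.10 (SE 0.14, adjusted p = 0.000577) at 1 year, a difference of 1.09 (SE 0.20, 95% interval 0.67 to 1.51, adjusted p = 0.101). The same shape held for NAA15 (ENSDARG00000003213), a subunit of the major N-terminal acetyltransferase, with 0.02 (SE 0.12) at 3 years and -0.79 (SE 0.12) at 1 year. It also held for foxj3, a forkhead transcription factor, with -0.02 (SE 0.11) at 3 years and -0.80 (SE 0.11) at 1 year, and for TRIM62 (ENSDARG00000060901), a ubiquitin ligase, with -0.15 (SE 0.17) and -1.47 (SE 0.18).

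Among these genes of low p, several were above 0 at 3 years and below 0 at 1 year. TTC6, a protein of tetratricopeptide repeats, had effects of 0.75 (SE 0.20) at 3 years (adjusted p = 0.0628) and -0.79 (SE 0.20) at 1 year (adjusted p = 0.0118), a difference of 1.54 (SE 0.28). TTC6 had 5.04, 5.59, 6.29, 4.75 and 4.8 CPM in the 5 exercised 3-year libraries, against 3.13, 2.64, 2.69, 4.64 and 2.65 CPM in the unexercised 3-year ones. The exercised 1-year libraries had 2.13, 3.62, 2.91, 2.05 and 4.06 CPM, against 5.07, 5.78, 5.09, 4.63 and 5 CPM in the unexercised 1-year ones. The groups did not overlap at either age, being higher with exercise at 3 years and lower at 1 year; the 1-year effect was called and the 3-year effect was not. GEMIN5, which binds small nuclear RNAs for their assembly into splicing particles, had 0.40 (SE 0.19) at 3 years and -1.03 (SE 0.19) at 1 year. IFRD2, a ribosome-binding repressor of translation, had 0.22 (SE 0.16) and -0.86 (SE 0.16) at 3 years and 1 year, the finTRIM gene ftr93 had 0.56 (SE 0.17) and -0.62 (SE 0.17), and BCL9L, a coactivator of beta-catenin, had 0.19 (SE 0.09) and -0.43 (SE 0.09). NUDC, a partner of dynein, rose at 3 years by 0.49 (SE 0.11) (adjusted p = 0.0381) and had -0.27 (SE 0.11) at 1 year (adjusted p = 0.104).

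In GFM2 and si:ch211-114l13.11, both of this set, 1 exercised 3-year library stood apart from its group. GFM2, a recycling factor of mitochondrial ribosomes, rose at 3 years by 1.20 (SE 0.20) (adjusted p = 0.0136) and had -0.25 (SE 0.20) at 1 year. The GFM2 level at 3 years was 24.6, 8.93, 25.6, 23.2 and 25 CPM in exercised fish and 8.86, 8.64, 10.6, 8.97 and 9.63 CPM in unexercised fish. At 1 year it was 7.85, 6.2, 8.49, 6.17 and 6.91 CPM in exercised fish and 8.34, 8.68, 8.49, 8.89 and 7.92 CPM in unexercised fish. Among the 20 libraries the values split into 4 exercised 3-year libraries at 23.2 CPM or above and all others at 10.6 CPM or below, so exercised 3-year replicate 2 stood with the unexercised fish. The role of si:ch211-114l13.11 is not annotated. Levels of si:ch211-114l13.11 were 17.6, 0.0243, 13.6, 12 and 9.79 CPM in exercised and 0.0384, 0.0249, 0.0783, 0.147 and 0.0182 CPM in unexercised 3-year fish. They were 3.43, 10, 7.07, 7.62 and 17.2 CPM in exercised and 8.1, 8.8, 0.0519, 6.72 and 7.52 CPM in unexercised 1-year fish. All 5 unexercised 3-year libraries, 1 exercised 3-year library and 1 unexercised 1-year library were near 0, and the other 13 were at 3.43 CPM or above. Its fitted difference of 6.89 (SE 1.48) rests on these libraries near 0 and is no bound.

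**Figure D3:**
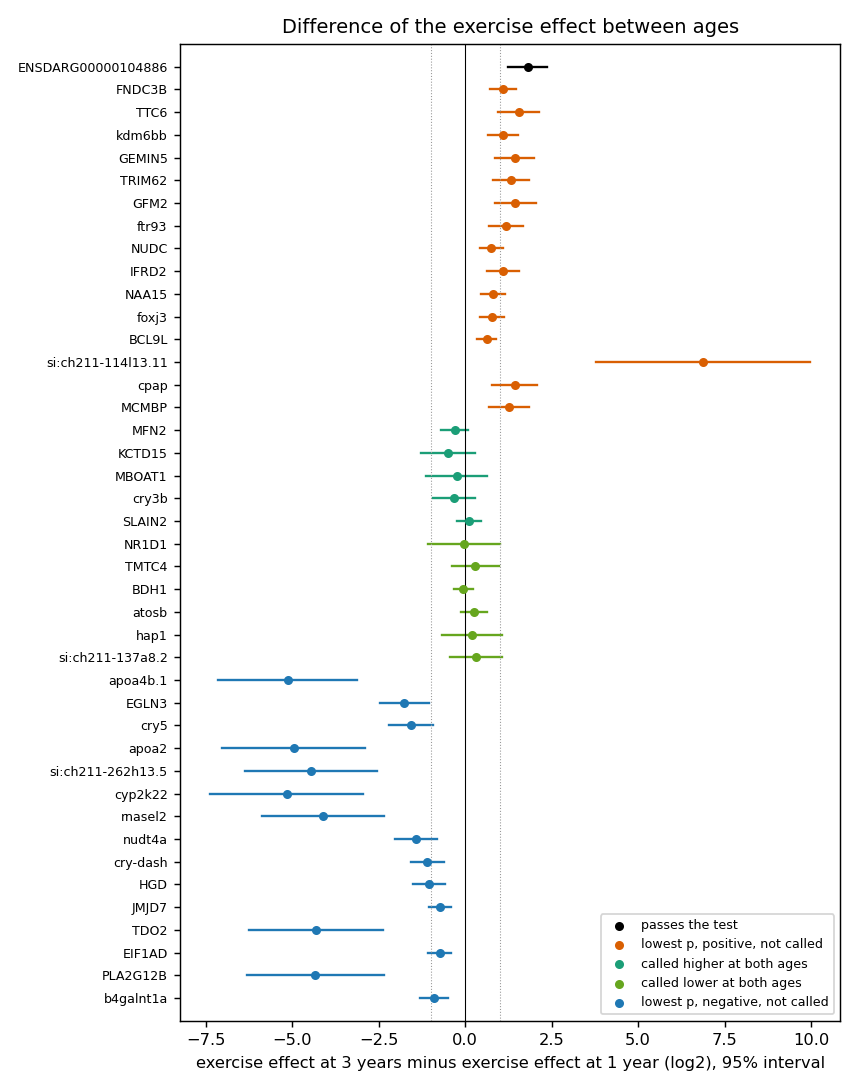
Difference of the exercise effect (3 years minus 1 year, log2) with its 95% interval for the called gene, the 15 genes of lowest p in each direction and 11 genes called at both ages. Dotted lines mark a 2-fold difference either way. The intervals of the 11 shared genes, picked for their calls at both ages, hold 0. Those of the liver-type genes near the bottom are the widest shown beside that of si:ch211-114l13.11.

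Many genes of the cell cycle and of DNA replication fell with exercise at 1 year. None was called at 3 years, when few genes of any kind were called. Of 87 genes of this list tested, 0 were called at 3 years (against 1.32% of all genes), where the median log2 fold change was 0.10. At 1 year 33 fell and 0 rose (against 8.15% and 7.37% of all genes), with a median of -0.67. The difference was positive for 84 of the 87, with a median of 0.75 against 0.02 over all genes tested. Its p was below 0.05 without adjustment for 38 of them (43.7%, against 13.4% of all genes), all positive, and 0 passed after adjustment; DESeq2 called 10, all positive. The count of 38 was 25 without exercised 3-year replicate 3, 24 without replicate 4 and 63 without replicate 5 of that group, and 22 without both first unexercised libraries; the median was 0.49 without replicate 4.

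The replicative helicase shows the pattern gene by gene. Its subunits MCM2 to MCM7 form the ring that unwinds DNA at the fork; these 6 were taken as the whole complex after their values were seen. Exercised 3-year fish had 29.2, 32.4, 53.8, 50.6 and 12.4 CPM of MCM2, against 24.9, 39.4, 51.8, 35.6 and 44.3 CPM in unexercised 3-year fish. Exercised 1-year fish had 19.4, 11.1, 22, 9.04 and 15.3 CPM, against 83.4, 61.7, 38.8, 62 and 52.3 CPM in unexercised 1-year fish. At 3 years the groups overlapped, with the lowest value in exercised replicate 5, and at 1 year no exercised library reached any unexercised one. MCM2 had an effect of -0.14 (SE 0.32, adjusted p = 0.858) at 3 years and -1.96 (SE 0.34, adjusted p = 0.00141) at 1 year, a difference of 1.82 (SE 0.46, 95% interval 0.85 to 2.79, adjusted p = 0.114). MCM5 had 0.02 (SE 0.36) at 3 years and -1.91 (SE 0.37) at 1 year. MCM4 had 0.07 (SE 0.26) and -1.26 (SE 0.27), MCM6 (ENSDARG00000057683) -0.10 (SE 0.31) and -1.53 (SE 0.32), and MCM7 0.02 (SE 0.14) and -0.75 (SE 0.14), in that order of ages. MCM3 had 0.12 (SE 0.23) at 3 years and -0.67 (SE 0.23) at 1 year (adjusted p = 0.0553), the one 1-year effect of the 6 that was not called. None of the 6 was called at 3 years. MCMBP, which binds the complex, had -0.10 (SE 0.20) at 3 years and -1.38 (SE 0.20) at 1 year.

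Genes of chromatin copying and of DNA repair came next in this comparison. UHRF1, which keeps DNA methylation through replication, averaged 23.5 ± 12 CPM in exercised and 20.7 ± 3.67 CPM in unexercised 3-year fish, and 7.82 ± 2.46 CPM in exercised and 27.3 ± 6.45 CPM in unexercised 1-year fish (SD, n = 5 each). UHRF1 had 16.4, 23.4, 37.8, 32 and 7.72 CPM in the 5 exercised 3-year libraries, against 16.2, 19.9, 25.3, 23.4 and 18.7 CPM in the unexercised 3-year ones. The exercised 1-year libraries had 9.76, 4.91, 10, 5.41 and 9.01 CPM, against 32.9, 35.6, 21.8, 23.7 and 22.4 CPM in the unexercised 1-year ones. Its 1-year groups did not overlap and its 3-year groups did, and the difference was 1.98 (SE 0.45, 95% interval 1.05 to 2.92, adjusted p = 0.102). The centriole gene cpap had effects of 0.28 (SE 0.22) at 3 years and -1.15 (SE 0.22) at 1 year. Of 34 DNA repair genes, DDB2 fell at 3 years, and at 1 year ERCC6 rose and 11 fell (against 8.15% of all genes that fell at 1 year). The median difference was 0.26, with p below 0.05 without adjustment for 8 positive and 1 negative (26.5%, against 13.4% of all genes). The 8 became 13 without unexercised 3-year replicate 3 and 5 without both first unexercised libraries, the 1 became 3 without unexercised 1-year replicate 5, and the median was 0.44 without scaling factors. The mismatch repair gene MSH6 had 0.11 (SE 0.18) at 3 years and -0.94 (SE 0.19) at 1 year, called at 1 year alone. Of 57 histone lysine methylases and demethylases, DOT1L rose at 3 years, and 3 rose and 20 fell at 1 year, with a median difference of 0.17. Their unadjusted p was below 0.05 for 13 positive and 5 negative genes (31.6%, against 13.4% of all genes), and for 8 positive ones without exercised 1-year replicate 2. The 5 negative became 2 to 3 without most single libraries and 0 without scaling factors.

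**Figure D4:**
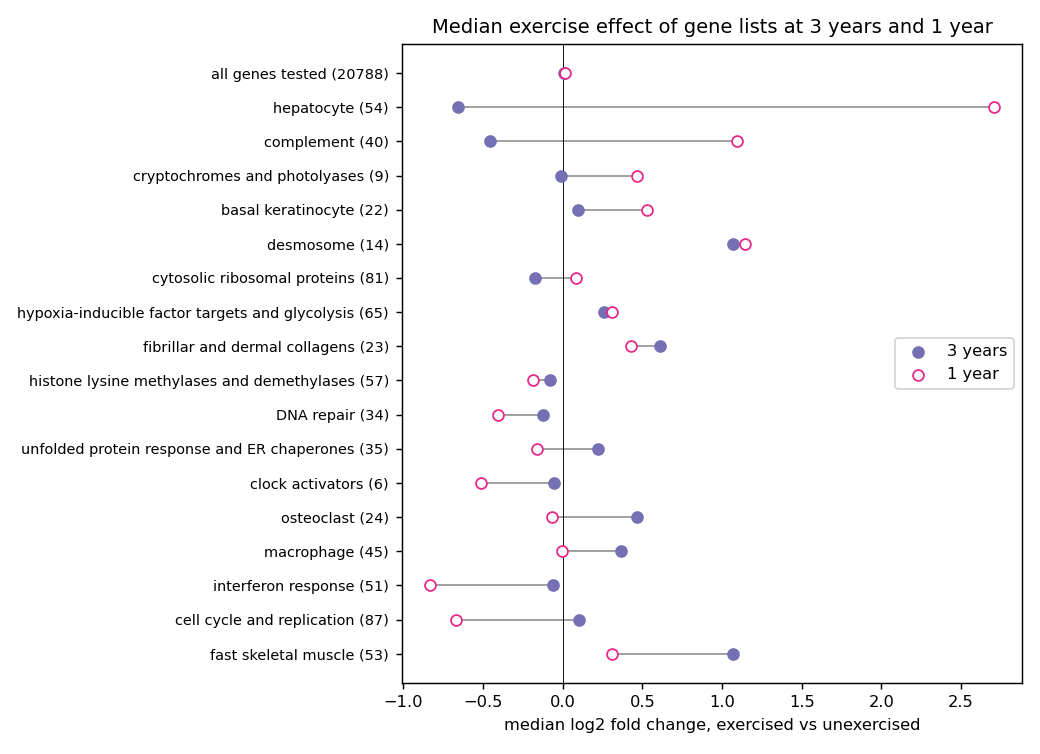
Median log2 fold change of exercised against unexercised fish at 3 years (filled) and at 1 year (open) for 17 gene lists and for all genes tested, with the number of genes tested in parentheses. The medians of desmosome genes lie close together, while the median of their per-gene differences is -0.41. The medians of cell cycle and interferon genes lie below 0 at 1 year and near 0 at 3 years. The hepatocyte median lies at -0.66 at 3 years and 2.71 at 1 year.

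Some genes of the interferon response, which fish and mammals switch on against viruses, also fell at 1 year. Of 51 tested, 0 were called at 3 years (against 1.32% of all genes), where the median was -0.06. At 1 year 12 fell and 0 rose (against 8.15% and 7.37% of all genes), with a median of -0.83. The difference was positive for 44, with a median of 0.62. Without adjustment, 10 of 51 (19.6%, against 13.4% of all genes) had p below 0.05, 9 positive and 1 negative. The median was 0.36 without exercised 3-year replicate 4 and 0.86 without replicate 5 of that group. The 9 became 5 without exercised 3-year replicate 4, 23 without replicate 5 of that group, 14 without unexercised 3-year replicate 3, 3 in limma voom, and 17 with the muscle score as a covariate or without scaling factors. The fish antiviral gene gig2e had the lowest p of the list. The gig2e level at 3 years was 38.5, 58.8, 52.3, 38.5 and 6.54 CPM in exercised fish and 24.1, 43.4, 30.8, 20.8 and 24.4 CPM in unexercised fish. At 1 year it was 17.6, 11.5, 7.39, 4.36 and 8.58 CPM in exercised fish and 16.6, 37.9, 51.7, 49.9 and 12.1 CPM in unexercised fish. Exercised 3-year replicate 5 was the lowest of its group here, and also had the lowest list score (mean log2 CPM) of all libraries for interferon genes, 3.49 against 3.91 to 5.83 in the other 19. Its score for cell cycle genes was 2.25, the lowest at 3 years, against 3.37 to 4.22 in the other 4 exercised 3-year, 3.06 to 4.17 in unexercised 3-year, 2.22 to 2.79 in exercised 1-year and 3.17 to 3.51 in unexercised 1-year libraries. SOCS3 (ENSDARG00000026611), a feedback inhibitor of cytokine receptors, had 0.28 (SE 0.28) at 3 years and fell by 1.01 (SE 0.28) at 1 year.

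Macrophage, osteoclast and endoplasmic reticulum genes leaned to the positive side of the difference. Of 45 macrophage genes, SPI1 rose at 3 years and MPEG1 (ENSDARG00000043093) fell at 1 year. Over all genes tested, 0.803% rose at 3 years and 8.15% fell at 1 year. The median difference was 0.47, with 10 positive and 1 negative at an unadjusted p below 0.05 (24.4%, against 13.4% of all genes). Without exercised 3-year replicate 4 the median was 0.18 and the 10 became 6, the median was also 0.18 without replicate 1 of that group, and it was 0.28 to 0.31 without unexercised 1-year replicate 4, exercised 1-year replicate 4, or unexercised 3-year replicates 1 or 5. It was 0.22 with 6 positive in limma voom. The complement subunit gene c1qa had 0.70 (SE 0.31) at 3 years (adjusted p = 0.226) and -0.71 (SE 0.31) at 1 year (adjusted p = 0.134), neither called. The median difference of 24 osteoclast genes, which belong to cells that resorb scale and bone, was 0.42. It was 0.17 with the stricter filter of 5 CPM. Of the 24 osteoclast genes, 2 rose and 0 fell at 3 years (against 0.803% and 0.52% of all genes). At 1 year 3 rose and 2 fell (against 7.37% and 8.15% of all genes). For the difference, 8 of these 24 genes were positive and 2 negative at an unadjusted p below 0.05 (41.7%, against 13.4% of all genes). Among them ocstamp, needed for osteoclast fusion in mice, rose at 3 years by 2.38 (SE 0.56) (adjusted p = 0.0436), to 1.94 ± 1.84 CPM in exercised and 0.372 ± 0.152 CPM in unexercised 3-year fish, and 0.0964 ± 0.0717 CPM in exercised and 0.258 ± 0.137 CPM in unexercised 1-year fish (SD, n = 5 each). Levels of ocstamp were 1.62, 0.705, 1.66, 5.11 and 0.59 CPM in exercised and 0.173, 0.374, 0.6, 0.367 and 0.347 CPM in unexercised 3-year fish. They were 0.0762, 0.0496, 0.109, 0.033 and 0.214 CPM in exercised and 0.19, 0.34, 0.26, 0.429 and 0.0712 CPM in unexercised 1-year fish. All exercised 3-year values exceeded those of the other groups except the lowest, 0.59 CPM, which the highest unexercised 3-year value of 0.60 CPM just passed.

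Of 35 genes of the unfolded protein response and of chaperones of the endoplasmic reticulum, MANF rose at 3 years and 3 fell at 1 year. The shares of all genes were 0.803% that rose at 3 years and 8.15% that fell at 1 year. For the difference, 10 were positive and 0 negative at an unadjusted p below 0.05 (28.6%, against 13.4% of all genes), with a median of 0.36. That median was 0.22 without exercised 3-year replicate 4, and without scaling factors it was 0.56 with 16 positive. HYOU1, a chaperone of that compartment, averaged 94.8 ± 29.6 CPM in exercised and 59.7 ± 5.65 CPM in unexercised 3-year fish, and 69.8 ± 5.1 CPM in exercised and 97.2 ± 24.6 CPM in unexercised 1-year fish (SD, n = 5 each). Exercised 3-year fish had 64.6, 92, 95.8, 143 and 78.4 CPM of HYOU1, against 50.1, 60.6, 61.4, 61 and 65.2 CPM in unexercised 3-year fish. Exercised 1-year fish had 67.6, 62.2, 72.8, 75.2 and 71.3 CPM, against 126, 92, 59.2, 102 and 106 CPM in unexercised 1-year fish. It had effects of 0.67 (SE 0.19, adjusted p = 0.0737) at 3 years and -0.48 (SE 0.19, adjusted p = 0.0887) at 1 year, neither called, and a difference of 1.15 (SE 0.26). The leptin gene lepb rose at 3 years. lepb had 2.11, 1.82, 8.68, 8.52 and 2.73 CPM in the 5 exercised 3-year libraries, against 1.82, 1.29, 0.469, 1.52 and 0.511 CPM in the unexercised 3-year ones. The exercised 1-year libraries had 0.457, 0.62, 0.525, 0.198 and 0.784 CPM, against 1.27, 0.618, 1.19, 0.536 and 0.593 CPM in the unexercised 1-year ones. All exercised 3-year libraries lay above all unexercised 3-year ones, though the nearest pair is equal to 3 digits, and the effect on the log2 scale was 2.09 (SE 0.50, adjusted p = 0.0474), while the 1-year effect of -0.70 (SE 0.52, adjusted p = 0.389) was not called. The scale mineral matrix gene scpp7 rose at 3 years by 2.07 (SE 0.35) (adjusted p = 0.0136) and had 0.63 (SE 0.33) at 1 year (adjusted p = 0.22), a difference of 1.44 (SE 0.47), not called. Both lepb and scpp7 had the lowest p of lists that were mixed in sign. The 14 adipocyte genes, with lepb, had 6 positive and 8 negative differences and a median of -0.07. The 27 scale osteoblast genes, with scpp7, had 13 positive and 14 negative differences and a median of -0.01.

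The most negative differences belonged to transcripts typical of liver, which rose with exercise at 1 year and had values below 0 at 3 years. Of 54 hepatocyte genes, 0 were called at 3 years (against 1.32% of all genes), where the median was -0.66. At 1 year 37 rose and 1 fell (against 7.37% and 8.15% of all genes), with a median of 2.71. The difference was negative for 52, with a median of -3.52. Without adjustment, 41 of the 54 (75.9%, against 13.4% of all genes) had p below 0.05, all negative. In this list 0 were called by edgeR and 34 by DESeq2. The apolipoprotein apoa2 shows how these transcripts were spread over libraries. The apoa2 level at 3 years was 39, 18.2, 91.4, 51.2 and 26 CPM in exercised fish and 77, 44, 38.4, 235 and 46.1 CPM in unexercised fish. At 1 year it was 323, 513, 1091, 62 and 65.3 CPM in exercised fish and 20.8, 24.6, 25.3, 25.6 and 31.5 CPM in unexercised fish. At 3 years unexercised replicate 4 was the highest, and at 1 year replicates 1, 2 and 3 of the exercised fish were far above the other 2. The difference for apoa2 was -4.97 (SE 0.99, 95% interval -7.04 to -2.90, adjusted p = 0.101).

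The high values lay in few libraries. At 3 years the hepatocyte list score was 3.38 in exercised replicate 3 and 1.53 to 2.38 in the other exercised libraries, and 4.44 in unexercised replicate 4 against 2.13 to 2.87 in the other unexercised ones. It was 4.06, 4.63 and 5.58 in exercised 1-year replicates 1, 2 and 3, 2.51 and 2.53 in replicates 4 and 5, and 1.82 to 2.50 in unexercised 1-year libraries. The 6 liver markers, of which none was at 0 in any library, summed to 86.8 to 447 CPM in exercised 3-year, 128 to 965 CPM in unexercised 3-year, 188 to 3443 CPM in exercised 1-year and 77.8 to 201 CPM in unexercised 1-year libraries. The 2 kidney markers summed to 0.178 to 18.4 CPM in exercised 1-year libraries, where cdh17 reached 17.3 CPM. Their highest sums elsewhere were 1.65 CPM (exercised 3-year), 0.965 CPM (unexercised 3-year) and 1.09 CPM (unexercised 1-year). The source of the kidney signal was not tested. The part of liver-type transcripts in the results on other genes was not tested beyond a fit with the hepatocyte score as a covariate. In that fit 0 genes were called for the difference and the list median became 0.03, and the score contains the list's own members. The other liver-type genes of low p had differences of -5.14 (SE 0.96) for the apolipoprotein apoa4b.1, -5.16 (SE 1.06) for the cytochrome P450 cyp2k22, -4.32 (SE 0.93) for TDO2, which starts tryptophan breakdown, -4.34 (SE 0.95) for PLA2G12B and -4.11 (SE 0.85) for the ribonuclease rnasel2. The gene si:ch211-262h13.5, for which no role is given here, had -4.46 (SE 0.91). HGD, an enzyme of tyrosine breakdown, had a difference of -1.06 (SE 0.22) and levels of 42.1 ± 10.3 CPM in exercised and 58.9 ± 4.34 CPM in unexercised 3-year fish, and 67.3 ± 15.8 CPM in exercised and 45.2 ± 2.52 CPM in unexercised 1-year fish (SD, n = 5 each), which was higher in exercised fish at 1 year without overlap.

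Complement genes, most of them also made in liver, followed in part. Of 40 tested, 0 were called at 3 years (against 1.32% of all genes). At 1 year 10 rose and 0 fell (against 7.37% and 8.15% of all genes). At an unadjusted p below 0.05, 17 had a negative and 5 a positive difference (55%, against 13.4% of all genes), and the median was -1.51. The fit with the hepatocyte score gave a median of 0.54, and these counts were 2 negative and 10 positive. With the stricter filter of 5 CPM, which drops weak genes, they were 5 negative and 5 positive, with a median of -0.31. The 17 became 7 without unexercised 3-year replicate 4 and 10 or 11 without unexercised 1-year replicates 2 or 5, exercised 1-year replicate 3, or exercised 3-year replicates 1 or 5. Vitronectin, VTN (ENSDARG00000053831), had a difference of -4.25 (SE 1.14), and 0.21 with that covariate.

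Light- and clock-related genes differed in direction between families. Cryptochromes and photolyases are related flavoproteins: some members repress the clock and others repair ultraviolet damage to DNA. A symbol that begins with cry does not by itself mark a clock repressor, and that holds for cry5 and cry-dash. Of 9 tested, cry3b rose and cry-dash fell at 3 years, and cry5, cpdp, cry3a and cry3b rose at 1 year. The difference was negative for 7 of 9, with 4 at an unadjusted p below 0.05 (44.4%, against 13.4% of all genes) and a median of -0.32. Levels of cry5 were 10.5, 12.3, 8.3, 13.5 and 9.15 CPM in exercised and 12.1, 15.9, 27.1, 18.1 and 17.3 CPM in unexercised 3-year fish. They were 43.9, 51.8, 53, 41.6 and 47.3 CPM in exercised and 19.3, 17.7, 29, 28.4 and 39.4 CPM in unexercised 1-year fish. The highest cry5 values were those of exercised 1-year fish and the lowest those of exercised 3-year fish, with overlap between the groups at 3 years. Its effects were -0.75 (SE 0.22, adjusted p = 0.0787) at 3 years and 0.83 (SE 0.21, adjusted p = 0.0145) at 1 year, a difference of -1.58 (SE 0.31, 95% interval -2.22 to -0.94, adjusted p = 0.101). DESeq2 called 3 of the 9 lower.

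For cry-dash, whose relatives in bacteria and plants repair single-stranded DNA, the change was at 3 years. Exercised 3-year fish had 14.8, 12.5, 11.4, 10.7 and 14.6 CPM of cry-dash, against 21.4, 28.1, 25.1, 23.3 and 22.8 CPM in unexercised 3-year fish. Exercised 1-year fish had 37, 39, 45.7, 25.6 and 39.9 CPM, against 27.9, 23.1, 40.5, 39.5 and 33.9 CPM in unexercised 1-year fish. Exercised 3-year fish lay below all unexercised 3-year fish, and at 1 year the groups overlapped. The effects were -0.92 (SE 0.16, adjusted p = 0.0161) at 3 years and 0.18 (SE 0.16, adjusted p = 0.485) at 1 year, a difference of -1.10 (SE 0.23, 95% interval -1.58 to -0.62, adjusted p = 0.101). The photolyase cpdp had -0.40 (SE 0.15) at 3 years (adjusted p = 0.153) and 0.48 (SE 0.15) at 1 year (adjusted p = 0.035). DDB2, which finds ultraviolet damage for excision repair, fell at 3 years by 0.81 (SE 0.13) (adjusted p = 0.0118) and had -0.21 (SE 0.12) at 1 year (adjusted p = 0.266), a difference of -0.60 (SE 0.18); cpdp and DDB2 were chosen after their values were seen.

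Of 6 genes for clock activators, all 6 had a positive difference, 3 with p below 0.05 without adjustment (50%, against 13.4% of all genes). BMAL1 (ENSDARG00000006791), which drives the positive limb of the clock, had -0.02 (SE 0.23) at 3 years and fell by 1.10 (SE 0.23) at 1 year, with means of 27.7 ± 3.69 CPM in exercised and 28.1 ± 0.896 CPM in unexercised 3-year fish, and 9.15 ± 4.37 CPM in exercised and 19.6 ± 5.4 CPM in unexercised 1-year fish (SD, n = 5 each). Its partner CLOCK (ENSDARG00000003631), chosen after its values were seen, had -0.10 (SE 0.12) at 3 years and fell by 0.64 (SE 0.12) at 1 year. The clock output nfil3-5 had -0.14 (SE 0.35) at 3 years and fell by 1.80 (SE 0.36) at 1 year. It had the lowest p of a mixed list of 9 clock outputs, with 5 positive and 4 negative differences and a median of 0.09. Of those 9, 3 fell at 3 years, and 3 fell and 1 rose at 1 year. Unlike BMAL1, its repressor NR1D1 (REV-ERB alpha) fell at both ages. NR1D1 had 4.49, 3.11, 2.13, 2.14 and 2.12 CPM in the 5 exercised 3-year libraries, against 6.77, 14.7, 22.7, 18.5 and 10.8 CPM in the unexercised 3-year ones. The exercised 1-year libraries had 17.4, 13.2, 23.4, 12.6 and 18.7 CPM, against 56.1, 75.6, 126, 146 and 36.1 CPM in the unexercised 1-year ones. At each age all exercised values lay below all unexercised ones, and the effects were -2.40 (SE 0.38, adjusted p = 0.0118) at 3 years and -2.36 (SE 0.37, adjusted p = 0.000941) at 1 year. Their difference was -0.03 with an interval of -1.07 to 1.00, and its sign is not determined.

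Genes of basal keratinocytes rose at 1 year in larger number than at 3 years, without a call for the difference. The same holds over all genes tested, of which 7.37% rose at 1 year and 0.803% at 3 years. Of 22 tested, 3 rose at 3 years, where the median was 0.09, and 10 rose at 1 year, with a median of 0.53. The median difference was -0.33. Without adjustment, p was below 0.05 for 5 of 22 (22.7%, against 13.4% of all genes), all negative. The median was -0.12 without exercised 1-year replicate 4, and without scaling factors it was -0.14 with 2 such genes. TP63, the master regulator of the epidermis, chosen after its values were seen, had 464, 493, 319, 354 and 680 CPM in exercised and 365, 347, 308, 282 and 303 CPM in unexercised 3-year fish. It had 688, 866, 853, 1205 and 735 CPM in exercised and 376, 342, 316, 298 and 456 CPM in unexercised 1-year fish. At 3 years the exercised range began within the unexercised one, and the 1-year groups stood apart. Its effects were 0.53 (SE 0.19, adjusted p = 0.137) at 3 years and 1.28 (SE 0.19, adjusted p = 0.000743) at 1 year, a difference of -0.76 (SE 0.26). FERMT1, an activator of integrins, had -0.01 (SE 0.13) at 3 years and rose by 0.57 (SE 0.13) at 1 year, and GRHL2, an epithelial transcription factor, had 0.02 (SE 0.13) at 3 years and rose by 0.83 (SE 0.13) at 1 year. Over 14 desmosome genes, which join keratinocytes, the medians were close, 1.07 at 3 years and 1.14 at 1 year. The median of their per-gene differences was -0.41, with 10 negative and 4 positive, and -0.21 without exercised 1-year replicate 4. An unadjusted p for the difference was below 0.05 for 1 of the 14 (7.14%, against 13.4% of all genes), a positive one. At 3 years 5 rose, and 9 rose and 2 fell at 1 year. DSP (ENSDARG00000022309), PERP, dsg2.1, pkp3a and dsc2l rose at both ages.

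Genes of oxygen sensing and growth signalling added single cases. EGLN3, a prolyl hydroxylase that marks hypoxia-inducible factors for decay, rose at 1 year. The EGLN3 level at 3 years was 4.25, 2.24, 4.52, 5.45 and 6.22 CPM in exercised fish and 4.18, 6.28, 5.43, 5.65 and 4.25 CPM in unexercised fish. At 1 year it was 6.86, 16.3, 9.73, 10.7 and 9.69 CPM in exercised fish and 3.28, 4.08, 3.56, 3.94 and 2.99 CPM in unexercised fish. All 5 exercised 1-year values exceeded those of every other group. The effects were -0.18 (SE 0.24, adjusted p = 0.715) at 3 years and 1.58 (SE 0.24, adjusted p = 0.000861) at 1 year, and the difference was -1.76 (SE 0.34, 95% interval -2.47 to -1.06, adjusted p = 0.101). Over 65 hypoxia-inducible factor targets and glycolysis genes, 4 rose and 0 fell at 3 years (against 0.803% and 0.52% of all genes). At 1 year 12 rose and 2 fell (against 7.37% and 8.15% of all genes). The medians were 0.26 at 3 years and 0.31 at 1 year. Their differences were mixed, 28 positive and 37 negative, with a median of -0.09. An unadjusted p was below 0.05 for 4 positive and 8 negative ones (18.5%, against 13.4% of all genes). P4HA1, a collagen prolyl hydroxylase, had 0.37 (SE 0.25) at 3 years and rose by 1.59 (SE 0.25) at 1 year. It had the lowest p of 30 genes of collagen hydroxylation and crosslinking, which had 13 positive and 17 negative differences and a median of -0.06. DEPTOR, an inhibitor of mTOR, averaged 63.1 ± 28.8 CPM in exercised and 52.5 ± 7.65 CPM in unexercised 3-year fish, and 237 ± 52.4 CPM in exercised and 76.1 ± 31.1 CPM in unexercised 1-year fish (SD, n = 5 each), with 0.27 (SE 0.28) at 3 years and a rise of 1.64 (SE 0.28) at 1 year, and its list of 60 insulin, mTOR and FoxO genes had 1 positive and 8 negative differences at an unadjusted p below 0.05 (15%, near the 13.4% of all genes). These were 3 positive and 4 negative without scaling factors, and the 8 became 5 without replicate 2 of either 1-year exercised or 1-year unexercised fish, or without exercised 3-year replicates 2 or 3.

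Of the 15 named genes of lowest p with a negative difference, cry-dash fell at 3 years and 14 rose at 1 year. The phosphatase of inositol pyrophosphates nudt4a rose at 1 year. Levels of nudt4a were 13.9, 15.9, 13.6, 13.4 and 24.8 CPM in exercised and 15.9, 15.8, 10.8, 12 and 12.4 CPM in unexercised 3-year fish. They were 36.2, 54.9, 42.4, 65.4 and 36.3 CPM in exercised and 13.7, 11.3, 13.1, 12.9 and 20.6 CPM in unexercised 1-year fish. The exercised 1-year libraries stood above all others, and the difference was -1.43 (SE 0.30, 95% interval -2.05 to -0.81, adjusted p = 0.101). JMJD7, EIF1AD and b4galnt1a had differences of -0.73 (SE 0.16), -0.74 (SE 0.16) and -0.91 (SE 0.20), and rose at 1 year by 0.56 (SE 0.11), 0.56 (SE 0.11) and 0.72 (SE 0.14). The sterol hydroxylase cyp27a1.1 fell at 3 years by 1.35 (SE 0.20) (adjusted p = 0.0108) and had -0.32 (SE 0.19) at 1 year (adjusted p = 0.289).

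Cytosolic ribosomal proteins had small differences, nearly all of one sign. Of 81 tested, 79 had a negative difference, with a median of -0.26 and medians of -0.17 at 3 years and 0.08 at 1 year. The unadjusted p was below 0.05 for 33 (40.7%, against 13.4% of all genes), all negative, 0 were called by edgeR and 9 by DESeq2. The distance from 0 and these p-values depended on scaling. Without scaling factors the ribosomal protein median moved to -0.07, and 0 of them had such a p. The median of all genes moved as well, from 0.02 to 0.20, and the ribosomal protein median lay below it in both fits. With the hepatocyte score as a covariate 7 ribosomal proteins had an unadjusted p below 0.05. For rps27a, the gene of lowest p, the levels were 1237 ± 51.4 CPM in exercised and 1474 ± 91.6 CPM in unexercised 3-year fish, and 1429 ± 64.4 CPM in exercised and 1301 ± 74.3 CPM in unexercised 1-year fish (SD, n = 5 each), and the difference was -0.39 (SE 0.10, 95% interval -0.60 to -0.18, adjusted p = 0.115).

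Fast muscle transcripts were higher with exercise on average at 3 years, with wide spread. Of 53 tested, myhz2 rose at 3 years and myhb rose at 1 year. The medians were 1.07 at 3 years and 0.31 at 1 year, with a median difference of 0.62. Without adjustment, 3 positive and 1 negative difference had p below 0.05 (7.55%, below the 13.4% of all genes). The 3 became 15 without exercised 3-year replicate 4, 10 without replicate 2 of that group, 9 without unexercised 1-year replicate 4 or without scaling factors, and 8 without exercised 1-year replicate 2, without unexercised 3-year replicate 2 or in DESeq2. The median difference ranged from 0.37, without exercised 3-year replicate 1, to 0.88 with 1 library left out, and was 0.94 with the hepatocyte score. Exercised 3-year fish had 17.2, 1.73, 14.4, 3.64 and 12.4 CPM of myhz2, against 0.94, 2.34, 3.13, 0.929 and 1.55 CPM in unexercised 3-year fish. Exercised 1-year fish had 3.99, 9.36, 3.35, 2.11 and 3.35 CPM, against 3.95, 4.01, 6.96, 2.81 and 5.53 CPM in unexercised 1-year fish. Exercised 3-year replicates 1, 3 and 5 held the high myhz2 values. The fast muscle score was 4.18 to 6.27 in exercised 3-year, 3.98 to 5.13 in unexercised 3-year, 4.96 to 6.36 in exercised 1-year and 4.35 to 5.67 in unexercised 1-year libraries. In unexercised 1-year replicate 1, whose column is named muscle, this score was 5.04, neither the lowest nor the highest of its group. Of 5 muscle markers 2 were matched, ckma and myhz2, and neither was at 0 in any library. With the fast muscle score as a covariate edgeR called 2 genes for the difference, and the list median was -0.05. The score contains the list's own members, so a list median near 0 in that fit is no test.

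Genes called at both ages in the same direction are described last. They were ranked by the larger of their 2 p-values. That choice favours effects of like size, so their small differences are a description and not a test. Of the 6 that rose with the smallest p, the 5 given here are MFN2, KCTD15 (ENSDARG00000045893), MBOAT1, cry3b and SLAIN2. MFN2, which fuses mitochondria, showed 74.7, 80.5, 51.5, 63.6 and 78.2 CPM in exercised and 39.7, 38.7, 37.2, 42.6 and 43.6 CPM in unexercised 3-year fish. It had 108, 132, 103, 134 and 86.2 CPM in exercised and 44.5, 52.2, 56.3, 47.4 and 62.2 CPM in unexercised 1-year fish. Exercised fish lay above unexercised fish at each age without overlap. Its effects were 0.79 (SE 0.14, adjusted p = 0.0155) at 3 years and 1.10 (SE 0.14, adjusted p = 0.000475) at 1 year, and the difference was -0.31 (95% interval -0.71 to 0.09), within 2-fold. The cryptochrome cry3b rose by 1.14 (SE 0.21) at 3 years and 1.46 (SE 0.21) at 1 year, with a difference of -0.32 (95% interval -0.92 to 0.28), and SLAIN2, which promotes microtubule growth, by 0.77 (SE 0.12) and 0.67 (SE 0.12), with 0.11 (95% interval -0.25 to 0.47). KCTD15 and the acyltransferase MBOAT1 rose by 1.56 (SE 0.27) and 1.72 (SE 0.31) at 3 years and by 2.06 (SE 0.27) and 1.98 (SE 0.31) at 1 year, and their intervals, -1.28 to 0.29 and -1.15 to 0.64, reach past 2-fold.

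The 6 that fell at both ages with the smallest p were NR1D1, TMTC4, BDH1, atosb, hap1 and si:ch211-137a8.2. BDH1, an enzyme of ketone metabolism, had 7.09 ± 0.633 CPM in exercised and 10.8 ± 1.02 CPM in unexercised 3-year fish, and 6.22 ± 0.12 CPM in exercised and 9.09 ± 0.739 CPM in unexercised 1-year fish (SD, n = 5 each). Its effects were -0.60 (SE 0.10) at 3 years and -0.55 (SE 0.10) at 1 year, with a difference of -0.05 (95% interval -0.34 to 0.23), the narrowest interval of the 11 given. TMTC4, a mannosyltransferase, had -1.35 (SE 0.24) and -1.64 (SE 0.24) at 3 years and 1 year with a difference of 0.29 (95% interval -0.40 to 0.98), and atosb had -0.70 (SE 0.13) and -0.96 (SE 0.13) with 0.26 (95% interval -0.12 to 0.64). The huntingtin-binding gene hap1 and si:ch211-137a8.2 had -1.59 (SE 0.30) and -1.28 (SE 0.26) at 3 years, -1.78 (SE 0.30) and -1.59 (SE 0.26) at 1 year, and intervals of the difference of -0.69 to 1.05 and -0.45 to 1.06.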

How the data were processed

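The 20 libraries of male zebrafish skin were made, per the labels' protocols, with TruSeq RNA v2 reagents, which leave strand unmarked. Reads from overlapping or antisense genes, and those from near-identical copies, therefore cannot be separated here. Per the submitters' processing notes bcl2fastq 1.8.4, STAR 2.4.1d, featureCounts 1.4.6-p4 were used, with the build GRCz10; their settings are not stated there. The values analysed are deposited counts, whole numbers for each gene, which the authors left unnormalised as far as the values show. The deposited RPKM values were not used. Of 32105 gene IDs, 26269 had a symbol in a separate name table; a symbol shared by several genes is printed with its ID.

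All libraries entered a model of 4 group means in edgeR 4.0.16 (R 4.3.3) with TMM scaling and the filterByExpr filter, which left 20788 genes, and robust quasi-likelihood tests on 16 residual degrees of freedom; the spread is shared by the 4 groups (biological coefficient of variation 34.7%). The difference between ages was a contrast of this fit, and its 95% interval used the t quantile of edgeR's total degrees of freedom. Adjusted p-values are Benjamini-Hochberg values over all genes tested, at a threshold of 0.05. No batch is named in the labels and no covariate was used in the reported fit. Replicates were numbered by accession, which ties none of them together. Every pair of libraries in a group differed beyond sampling noise (chi-square per degree of freedom 45.7 or more). Library totals were 29280697 to 52437698 counts.

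The members, the 58 gene lists and the rule for named genes were chosen with earlier results of these data known. The lists have 1735 entries and matched 1921 genes; they are described by counts and medians and were not tested as sets. The rule named the called genes, the 15 genes of lowest p in each direction as not called, since fewer than 10 genes were called, the member of lowest p of each list, and 6 genes called at both ages in each direction. The minimum of 5 CPM in at least 1 group and the need for a symbol were applied to the 15 per direction, a reading made after the number of calls was known. MCM2 to MCM7, TP63, CLOCK, cpdp and DDB2 lie outside the rule, except where a list named them, and were chosen after their values were seen, as were other list members named without values. The text prints a selection, and some genes the rule names are not reported here.

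Alternatives, 30 settings in all, were RLE scaling, upper-quartile scaling, no scaling factors, no filter, a stricter filter of 5 CPM in at least 5 libraries, DESeq2 1.42.0, limma 3.58.1 voom with quality weights, a fast muscle or a hepatocyte list score (mean log2 CPM, prior count 2) as a covariate, each library left out in turn, and the first library of both unexercised groups left out together. The scripts were tested on simulated data.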

Additional observations from a re-analysis of the deposited data

Results flagged for a closer look

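The exercise effect on ENSDARG00000104886 differed between 3 and 1 years by 1.80 on the log2 scale in edgeR's test of the difference (adjusted p = 0.0383), which is why it is listed here.

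In 16 of 304 groups of 5 examined (5.26%), 1 library lay far from the other 4 on the scale of log2(CPM + 0.5); chance gives about 1 in 20. At 3 years, exercised replicate 2 had 8.93 CPM of GFM2 against 23.2 to 25.6 CPM in the others of its group, and 0.0243 CPM of si:ch211-114l13.11 against 9.79 to 17.6 CPM. Exercised 3-year replicate 5 had 24.8 CPM of nudt4a against 13.4 to 15.9 CPM, and 6.54 CPM of gig2e against 38.5 to 58.8 CPM. Unexercised 3-year replicate 4 was high in liver-type transcripts, with 8.24 CPM of cyp2k22 against 1.27 to 2.09 CPM and 10.6 CPM of VTN (ENSDARG00000053831) against 0.858 to 1.69 CPM. It also had 3.18 CPM of si:ch211-262h13.5 against 0.835 to 1.02 CPM. Other unexercised 3-year libraries were apart for cpap (replicate 3, 6.26 CPM against 3.81 to 4.07 CPM), HYOU1 (replicate 1, 50.1 CPM against 60.6 to 65.2 CPM) and cyp27a1.1 (replicate 5, 14.3 CPM against 23.4 to 28.2 CPM).

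At 1 year, exercised replicate 4 had 1.09 CPM of ENSDARG00000104886 against 1.71 to 1.96 CPM and 29.1 CPM of GRHL2 against 17.8 to 19.8 CPM, and exercised replicate 1 had 6.43 CPM of BDH1 against 6.14 to 6.20 CPM. Among unexercised 1-year libraries, replicate 3 had 0.0519 CPM of si:ch211-114l13.11 against 6.73 to 8.80 CPM, replicate 2 had 19.0 CPM of FERMT1 against 24.5 to 26.2 CPM, and replicate 5 had 26.3 CPM of hap1 against 66.6 to 96.3 CPM.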

How the results depend on the processing

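No paired analysis was possible because replicates were numbered by accession, which ties none of them together. The difference between ages was called for 1 gene in the reported fit, for 2 with RLE scaling, upper-quartile scaling, limma voom or the muscle score, for 0 without scaling factors, without a filter, with the stricter filter (which leaves out ENSDARG00000104886), with the hepatocyte score or without both first unexercised libraries, for 500 in DESeq2, and for 0 to 39 with 1 library left out. ENSDARG00000104886 kept its direction in every fit that tested it, with a difference of 1.69 to 1.90 and an adjusted p of 0.0159 to 0.127 when 1 library was left out, where 11 of 20 such fits called it. The difference was 1.99 (adjusted p = 0.0506) without scaling factors, 1.80 (adjusted p = 0.0609) without a filter, 2.03 (adjusted p = 0.0858) with the hepatocyte score and 1.77 (adjusted p = 0.157) without both first unexercised libraries. DESeq2 called 49 of the 71 genes followed that edgeR did not.

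Exercise at 1 year was called for 3227 genes, for 1869 with the hepatocyte score, for 2083 without both first unexercised libraries, and for 1909 to 3534 with 1 library left out. At 3 years 275 were called, against 1257 in DESeq2, 33 in limma voom, 28 with the muscle score, 49 with the hepatocyte score, 26 without both first unexercised libraries, and 42 to 390 with 1 library left out. The share of genes called at 1 year with an interval within 2-fold was 30.3% with the hepatocyte score and 41% to 51.7% with 1 library left out.

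Without scaling factors the median of all genes was 0.20, and list medians became 0.35 (histone lysine methylases and demethylases), 0.56 (unfolded protein response), -0.14 (cryptochromes and photolyases, and likewise basal keratinocyte genes), -0.0014 (insulin, mTOR and FoxO), 0.12 (hypoxia and glycolysis) and -0.069 (ribosomal proteins). The stricter filter, which drops weak genes, gave 0.17 for osteoclast and -0.31 for complement genes. The hepatocyte score gave 0.031 for hepatocyte, 0.54 for complement and -0.50 for cryptochrome genes. With 1 library left out the hepatocyte median ranged from -4.11 to -2.53 and the basal keratinocyte median from -0.43 to -0.12. The difference of VTN (ENSDARG00000053831), -4.25 in the reported fit, became 0.21 with the hepatocyte score. Differences near 0 changed sign: SLAIN2 to -0.014 with the hepatocyte score, NR1D1 to 0.14 without scaling factors, 0.031 with the muscle score, 0.16 with the hepatocyte score and -0.29 to 0.18 with 1 library left out, and BDH1 to 0.13 without scaling factors and -0.10 to 0.004 with 1 left out. The causes were not tested, nor was an interval computed for DESeq2 or limma voom. What depth or the number of fish limits was not tested.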

Other observations

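Of 88 nuclear genes of oxidative phosphorylation, 0 were called at 3 years, and 8 rose and 0 fell at 1 year. Over all genes tested, 1.32% were called at 3 years, and 7.37% were higher and 8.15% lower at 1 year. The median exercise effect of the 88 was 0.24 at 3 years and 0.30 at 1 year, against 0.01 over all genes at each age. For the difference, 3 of the 88 (3.41%, against 13.4% of all genes) had an unadjusted p below 0.05, all negative, and the median was -0.06. Of 45 proteasome genes 0 were called at either age in edgeR, and 1 (2.22%) had such a p. Of 71 mitochondrial ribosomal protein genes, 0 were called at 3 years and 4 fell at 1 year, and 3 (4.23%) had such a p. Among pigment cell lists the count was 0 of 15 for melanophores and 2 of 17 for xanthophores, while it was 6 of 22 (27.3%) for iridophores and purine synthesis, 3 positive and 3 negative. It was 0 of 25 for endothelium.

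Matrix genes differed by list. Of 30 matrix metalloproteinases and inhibitors, 0 were called at 3 years, and 1 rose and 1 fell at 1 year. For the difference 8 (26.7%, against 13.4% of all genes) had an unadjusted p below 0.05, 6 positive and 2 negative, with a median of 0.20. DESeq2 called 3, all positive. Over 23 fibrillar and dermal collagens the median exercise effect was 0.61 at 3 years and 0.43 at 1 year, with 0 called at 3 years and COL10A1 (ENSDARG00000054753) rising at 1 year, and 1 of 23 (4.35%) had an unadjusted p below 0.05 for the difference. Of 28 basement membrane genes, 2 rose at 3 years, 3 rose and 1 fell at 1 year, and the median difference was -0.01. The median across 27 genes of scale osteoblasts was 0.48 at 3 years and 0.40 at 1 year.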
